A study of Mus musculus with 4 samples.

Results

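Forkhead genes encode transcription factors that share a winged-helix DNA-binding domain and are named with the letters A to S after Fox. They were taken here as all probe sets of the array that the platform annotation pairs with exactly 1 symbol made of Fox, a letter from a to s and a number. The rule gave 82 probe sets of 37 genes, out of 18193 genes with a probe set of their own. It used names only and no measured value, though the family was chosen with earlier results of these data known. RNA came from mesenchymal stem cell (MSC) lines, plastic-adherent stromal cells grown from C57BL/6 mice, with 2 colonic lines from flushed colon and 2 bone marrow lines. All 4 lines shared the same collagenase-based isolation and the same low-glucose, serum-containing medium, and were lysed between passages 5 and 10, with no gene modified and no agent tested, as far as the labels say. The labels used here do not state the age or sex of the mice or the passage of each line. The labels call the 2 arrays of a tissue biological replicates. The p-values set each difference against the spread between those lines, drawn towards the spread of other genes of similar intensity.

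In the gut, FoxF1, FoxF2 and FoxL1 are made in the mesenchyme beneath the epithelium, where Hedgehog signals from the epithelium sustain them. FoxC1 and FoxC2 act in mesoderm-derived stroma, and FoxC1 is known in mouse marrow for maintaining the stromal cells that make Cxcl12 and Scf. FoxO proteins are held in the cytoplasm by Akt when insulin or growth factor signals are present, and FoxM1 switches on genes of mitosis in dividing cells.

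The genes at the centre of the comparison include Foxc1 and Foxo1, both lower in the colonic lines, and Foxf2, the neighbour of Foxc1 whose tissues overlapped. The 250 bases before the start of each are shown because they let these 3 promoters be set side by side. They are RefSeq sequence of mouse build GRCm38.p6, read 5′ to 3′ on the + strand, from chr13:31806396-31806645 for Foxc1, chr13:31625566-31625815 for Foxf2 and chr3:52268087-52268336 for Foxo1. Capitals mark the GC box GGGCGG and the CCAAT box CCAAT on either strand, which did not overlap each other in these windows.
Foxc1: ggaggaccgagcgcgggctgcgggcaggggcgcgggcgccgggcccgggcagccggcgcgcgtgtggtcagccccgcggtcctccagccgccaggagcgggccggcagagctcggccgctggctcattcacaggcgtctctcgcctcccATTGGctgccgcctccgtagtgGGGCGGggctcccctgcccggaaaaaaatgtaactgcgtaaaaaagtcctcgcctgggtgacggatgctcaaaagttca
Foxf2: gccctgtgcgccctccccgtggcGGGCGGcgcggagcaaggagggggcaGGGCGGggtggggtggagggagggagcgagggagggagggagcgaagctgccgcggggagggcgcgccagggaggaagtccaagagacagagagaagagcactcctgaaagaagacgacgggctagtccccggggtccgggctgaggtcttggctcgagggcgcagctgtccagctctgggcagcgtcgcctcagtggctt
Foxo1: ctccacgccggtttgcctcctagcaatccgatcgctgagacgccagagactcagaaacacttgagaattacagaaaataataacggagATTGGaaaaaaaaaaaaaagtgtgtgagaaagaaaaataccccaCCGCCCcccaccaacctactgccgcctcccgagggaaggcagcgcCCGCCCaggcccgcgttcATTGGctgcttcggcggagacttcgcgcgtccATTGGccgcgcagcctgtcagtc

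The Foxc1 window holds 1 GC box and 1 CCAAT box, while the Foxf2 window holds 2 GC boxes and no CCAAT match and the Foxo1 window 2 GC boxes and 3 CCAAT boxes. RefSeq promoter windows were matched for 24 of the 37 genes, 29 windows in all. A GC box lay in 20 of the 29, against 32.7% of all 32851 windows, and a CCAAT box in 13 of the 29, against 33.8% of all. The family's windows were also richer in G and C, with a median of 62.8%, against 52.4% over all windows. The forkhead core GTAAACA, on either strand, was found in 1 of the 29 windows, that of Foxa1, and in 3.17% of all. The GLI site GACCACCCA, on either strand, was found in none of the 29 and in 0.225% of all. These matches are descriptions of letters and were not related to binding.

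Intensities are linear and have no fixed unit, so each is set against the same probe set on other arrays. Sums over a marker list, given below, follow the brightest probe sets of the list. The array medians lay between 53.6 and 55.5. Across all probe sets, log2 intensities correlated with r = 0.967 between the colonic lines, 0.973 between the bone marrow lines and 0.953 to 0.970 between lines of different tissues. Colonic replicate 2 was closer to bone marrow replicate 1 (0.970) than to colonic replicate 1, so the arrays did not group by tissue on this measure. The MSC label was checked on surface markers, of which 9 of 10 had a probe set. The hyaluronan receptor gene Cd44 had 8532 and 6512 in the colonic lines, against 6043 and 4867 in the bone marrow lines, and the integrin gene Itgb1 lay between 5338 and 7839 on all arrays. Nt5e, the CD73 gene, was at 209 and 27.6 in the colonic lines, against 76.3 and 27.9 in the bone marrow lines, so this defining marker was near the floor on 2 arrays. Of the 9, 4 were higher and 5 lower in colonic MSC, where 48.5% of all genes were lower. Cd44 and Itgb1 were higher without overlap. Pdgfrb, Cd9 and Pdgfra were lower without overlap, Pdgfra at 492 and 743 in the colonic lines, against 1609 and 2493 in the bone marrow lines. Over all genes 18.4% were higher and 15.1% lower without overlap. Eng overlapped, with 330 and 1035 in the colonic lines, against 1323 and 445 in the bone marrow lines. In colonic replicate 2 Alcam was at 37.0 and Vcam1 at 266, against 2140 and 2281 in colonic replicate 1. Of markers of other cells, the blood marker Ptprc lay between 19.3 and 28.6, the endothelial marker Pecam1 between 1.00 and 2.48 and the epithelial marker Epcam between 8.97 and 19.6, all near the floor. Other members of those lists were not, among them the macrophage genes Cd14 (573 to 963), Csf1r (148 to 324) and Lyz2 (31.7 to 1589), the endothelial gene Flt1, up to 1143, and the epithelial keratin gene Krt19, up to 6223. In such bulk samples fewer cells of a type and less RNA per cell cannot be told apart.

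Of the 37 genes, 24 had a probe set above the filter on dim probe sets, a mean intensity of about 31.9 on the log2 scale, and 13 did not. A gene could pass through 1 tissue alone. Colonic MSC were compared with bone marrow MSC to ask which of these factors differ between stroma of the 2 tissues. Among 12920 genes fitted with limma, none reached an adjusted p of 0.05 (0 genes), which is 0% of the genes tested and 0 of the 24 forkhead genes. An unadjusted p under 0.05 was found for 775 genes (6%), and for 4 of the 24. Of these 4, Foxf1 and Foxd2 were higher in colonic MSC, where 3.3% of all genes met that rule, and Foxc1 and Foxo1 were lower, where 2.7% did. What is called higher or lower in the forkhead genes is therefore the order of the values, with no gene past the threshold.

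Over the 24 genes the median log2 difference was -0.26, against 0.01 over all genes, and 14 lay lower in the colonic lines (48.5% of all genes did). The tissues did not overlap in 9 genes that were lower, where 15.1% of all genes met that rule, and in 5 that were higher, where 18.4% did. Mean levels were 2-fold or more apart in 3 lower genes (Foxc1, Foxo1 and Foxq1), against 3.51% of all genes, and in 3 higher ones (Foxf1, Foxd2 and Foxp2), against 5.52%. The difference exceeded the gap between lines within each tissue in 7 lower genes, namely Foxc1, Foxc2, Foxn2, Foxn3, Foxo1, Foxp1 and Foxq1, against 9.39% of all genes. It did so in 3 higher ones, Foxf1, Foxd2 and Foxp4, against 11.4%. Differences of 2-fold or more between the 2 colonic lines were seen in 6 of the 24 (Foxd1, Foxf2, Foxl2, Foxm1, Foxq1 and Foxs1), against 13.6% of all genes, and between the 2 bone marrow lines in 4 (Foxd1, Foxp2, Foxq1 and Foxs1), against 11%. The count of lower genes and the median depend on the choice of members above the filter and were not tested.

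**Figure D1:**
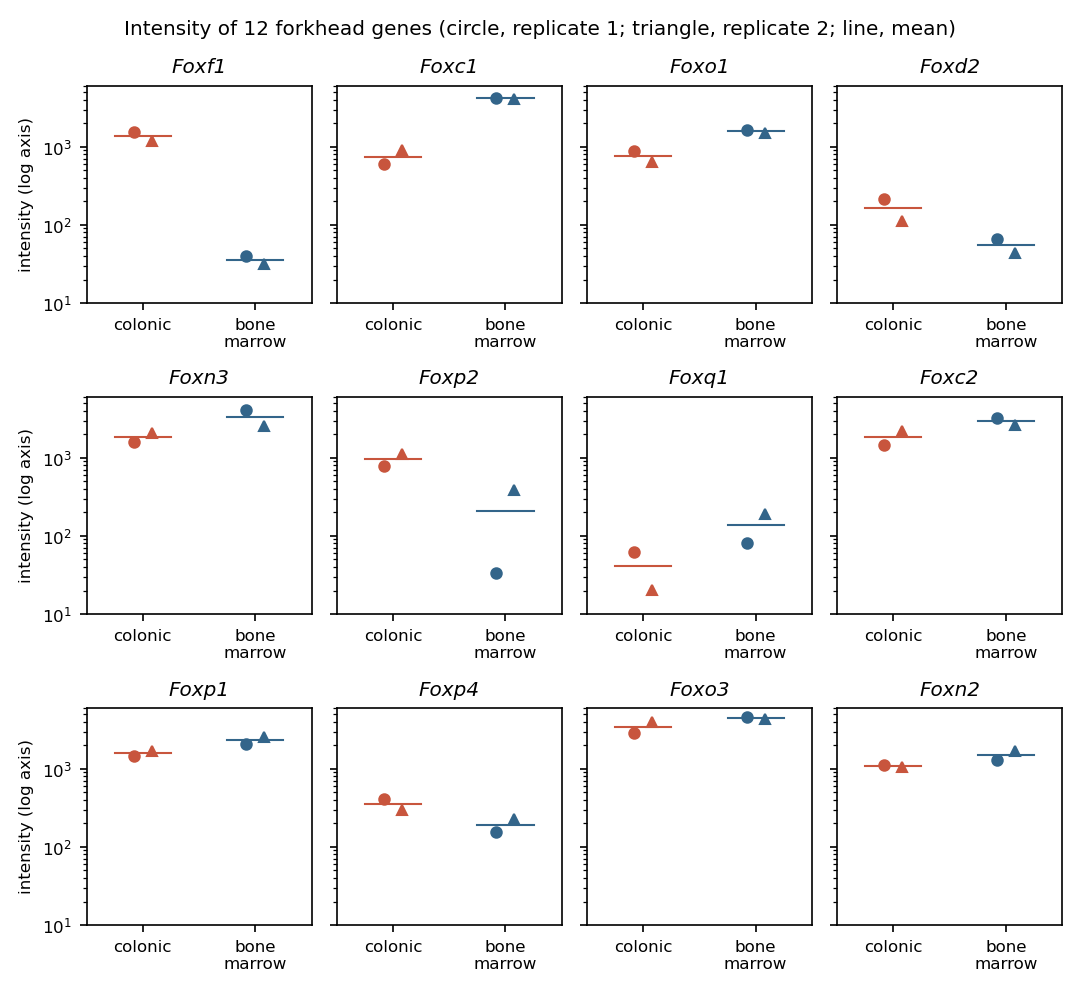
Intensity on a log axis of the 12 forkhead genes with the lowest unadjusted p, with the colonic lines left of the bone marrow lines, a circle for replicate 1, a triangle for replicate 2 and a line at the mean of the 2 values. The tissues do not overlap in any of the 12 genes, and the gap is widest for Foxf1. Choosing genes by lowest p favours those without overlap, so nothing is read from that count. Over all genes 18.4% were higher and 15.1% lower without overlap.

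Among factors of visceral mesenchyme, Foxf1 was near the floor in marrow and well above it in colon. Its probe set of higher mean had 1566 and 1188 in the colonic lines, against 39.8 and 31.9 in the bone marrow lines. The other probe set of Foxf1 was dimmer but split the lines in the same way, with 65.7 and 64.1 in the colonic lines, against 13.1 and 14.6 in the bone marrow lines. The limma log2 difference, colonic minus bone marrow, was 4.80 ± 0.35 (SE; 95% interval 3.86 to 5.74; adjusted p = 0.0523) for the first and 1.51 ± 0.21 (SE; adjusted p = 0.187 when each probe set was tested) for the other. The size of the first depends on the pseudocount, since the bone marrow values are near the floor, and was 5.22 with a pseudocount of 1 and 3.97 with that of the table median. The mean of both probe sets gave 3.16. The adjusted p of Foxf1 was under 0.05 with a filter at the 60th percentile (0.0458) and without an intensity trend (0.0493), and it was 0.234 and 0.352 when bone marrow replicate 1 or 2 was left out.

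Foxf1 is also made in smooth muscle and in some endothelial cells, so their markers are given here. Of 9 smooth muscle markers 8 were above the filter, and all 8 were higher in colonic MSC, with a median log2 difference of 0.74. Over all genes 48.5% were lower. Of the 8, Cnn1, Des, Smtn and Lmod1 overlapped between tissues, and Acta2 had a log2 difference of only 0.06. Myh11 and Des were bright in colonic replicate 1 alone, so the direction of the 8 may be partly set by the filter. Myocd, the marker below the filter, overlapped between tissues, with a log2 difference of -0.13. Gamma actin of smooth muscle, Actg2, had 11568 and 12248 in the colonic lines, against 8763 and 7332 in the bone marrow lines, and Tagln had 12334 and 11571 in the colonic lines, against 10867 and 6641 in the bone marrow lines. Both were thus higher in both colonic lines, as Foxf1 was, while the smooth muscle myosin gene Myh11 was at 1123 and 43.4 in the colonic lines, against 41.3 and 16.7 in the bone marrow lines. The summed intensity of the 9 was 61714 and 54011 in the colonic lines, against 50389 and 32218 in the bone marrow lines. Cnn1 made up 11529 and 8477 of it in the colonic lines, against 8623 and 33.0 in the bone marrow lines.

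Of 10 endothelial markers 4 were above the filter, and all 4 were higher in colonic MSC, with a median log2 difference of 0.95. Over all genes 48.5% were lower. Kdr and Tek had bone marrow values near or below the filter intensity, so the direction of the 4 is partly set by the filter. Emcn overlapped between tissues. Below the filter, Cdh5, Tie1 and Cldn5 had negative log2 differences, and Erg, Plvap and Pecam1 positive ones. The sum of the 10 was 1494 and 331 in the colonic lines, against 248 and 200 in the bone marrow lines, of which Flt1 made up 1143 on the array of colonic replicate 1. The VEGF receptor gene Kdr had 91.1 and 68.9 in the colonic lines, against 31.9 and 18.5 in the bone marrow lines, while Pecam1 was near the floor. Some markers of both cell types were thus higher in both colonic lines, as Foxf1 was, while others overlapped. The part of such cells in the Foxf1 difference was not tested.

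Foxf2, the closest relative of Foxf1, was well above the floor on all 4 arrays. It had 1229 and 465 in the colonic lines, against 1085 and 1397 in the bone marrow lines. The tissues overlapped, and the log2 difference was -0.69 ± 0.55 (SE; adjusted p = 0.976). Foxl1, which marks subepithelial telocytes of the mouse gut, was at the floor throughout, with 4.62 and 11.0 in the colonic lines, against 4.54 and 11.7 in the bone marrow lines. Among the probe sets of these 3 genes above the filter, the tissues were separate in Foxf1 alone.

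Foxc1 showed the reverse order to Foxf1. Its probe set of higher mean had 593 and 898 in the colonic lines, against 4213 and 4098 in the bone marrow lines. The other had 178 and 309 in the colonic lines, against 2225 and 2194 in the bone marrow lines. Both colonic lines were thus low but above the filter, and the bone marrow lines lay close together. The log2 differences were -2.49 ± 0.29 (SE; 95% interval -3.26 to -1.71; adjusted p = 0.137) and -3.16 ± 0.37 (SE; adjusted p = 0.146 when each probe set was tested). Foxc2, which shares roles with Foxc1 in mesoderm and vessels, had 1455 and 2219 in the colonic lines, against 3263 and 2618 in the bone marrow lines, without overlap (log2 difference -0.70 ± 0.30, SE; adjusted p = 0.872).

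Of the other factors of mesoderm and stroma, only Foxd2 did not overlap between tissues. Foxd1, a factor of kidney stroma and the embryonic eye, had 20.9 and 575 in the colonic lines, against 889 and 23.4 in the bone marrow lines, so 1 line of each tissue was high and the other near the floor. Foxs1, known from perivascular cells, had 1489 and 462 in the colonic lines, against 1193 and 214 in the bone marrow lines, with 1 line well above the other in both tissues. Foxd2 had 212 and 114 in the colonic lines, against 66.6 and 43.7 in the bone marrow lines, without overlap (log2 difference 1.32 ± 0.42, SE; adjusted p = 0.710). The other probe set of Foxd2 stayed below the filter, between 12.7 and 29.9, and overlapped between tissues, with a log2 difference of -0.30. On the brighter one, only colonic replicate 1 lay above the range of the genes of unrelated tissues given below, 1.00 to 144. Foxl2, a factor of the ovary and pituitary, was at 192 and 48.0 in the colonic lines, against 59.4 and 73.6 in the bone marrow lines, and the tissues overlapped. The group of 6 genes split evenly, 3 higher and 3 lower in colonic MSC, with a median log2 difference of 0.07.

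**Figure D2:**
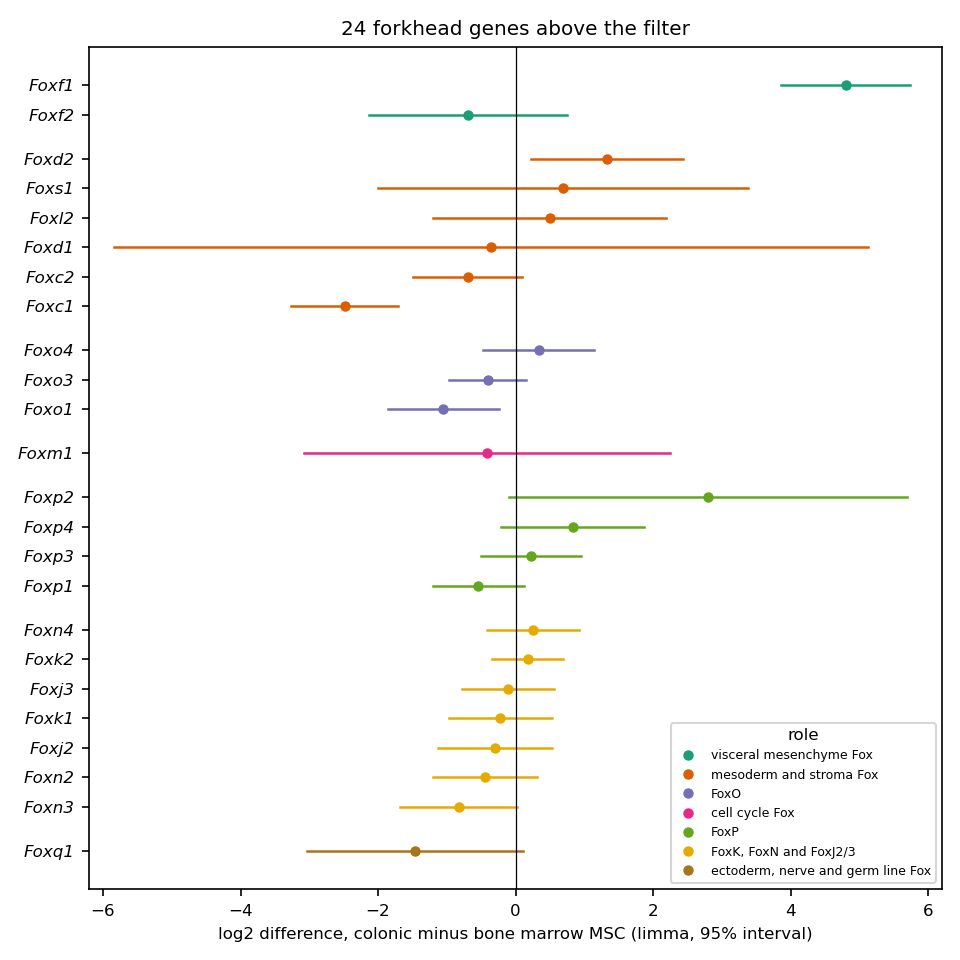
Log2 difference, colonic minus bone marrow MSC, of the 24 forkhead genes above the filter with limma's 95% interval, coloured by role. The intervals of Foxf1, Foxd2, Foxc1 and Foxo1 do not reach 0, and those of Foxd1, Foxm1, Foxp2 and Foxs1 are wide.

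FoxO genes encode targets of Akt that regulate metabolism, stress defence and cell cycle arrest. Foxo1 had 887 and 643 in the colonic lines, against 1640 and 1516 in the bone marrow lines, on the probe set that stands for it, which by its suffix may also match other transcripts. Its 2 other probe sets above the filter had log2 differences of -1.07 and -0.94 beside -1.05 ± 0.30 (SE; adjusted p = 0.658), and none of the 3 overlapped between tissues. Foxo3 had 2887 and 3960 in the colonic lines, against 4649 and 4330 in the bone marrow lines. Its 3 probe sets all lay lower in colonic MSC without overlap, with log2 differences between -0.55 and -0.36 (adjusted p = 0.955 for the probe set that stands for the gene). Foxo4 was dim, with 45.5 and 72.9 in the colonic lines, against 48.1 and 38.3 in the bone marrow lines. Foxo1, Foxo3 and Foxo4 had a median log2 difference of -0.41, with 2 lower and 1 higher, against a median of 0.01 over all genes.

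FOXO targets and regulators had 22 measured genes, 21 of them above the filter, with 0 past the test in either direction and a median log2 difference of 0.07. In order of p, Txnip, a thioredoxin inhibitor that glucose and FoxO regulate, had 6267 and 1449 in the colonic lines, against 284 and 98.5 in the bone marrow lines. Sesn1, a stress-induced brake on mTORC1, had 530 and 1004 in the colonic lines, against 1478 and 1581 in the bone marrow lines. Tnfsf10, the death ligand gene, had 47.4 and 45.7 in the colonic lines, against 27.5 and 28.0 in the bone marrow lines. The catalase gene Cat had 4636 and 4183 in the colonic lines, against 3326 and 3390 in the bone marrow lines. Tissues did not overlap in any of these 4, which are those of lowest p. Over all genes 18.4% were higher and 15.1% lower without overlap. Of the 4, Sesn1 was lower in colonic MSC, as Foxo1 was, and the bone marrow values of Tnfsf10 were near the floor. Of the rest of the list, Fbxo32, Sgk1 and Sirt1 were also lower without overlap, and Akt1, Akt2 and Sod2 higher. The 21 genes above the filter split into 12 higher and 9 lower.

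FoxP factors are repressors that work as dimers in lung, gut, heart, brain and lymphocytes. Foxp2 had 776 and 1134 in the colonic lines, against 33.0 and 385 in the bone marrow lines. In 2 other probe sets the same order held, with 522 and 798 in the colonic lines, against 6.21 and 266 in the bone marrow lines for the first, and 556 and 798 in the colonic lines, against 2.04 and 289 in the bone marrow lines for the next. Bone marrow replicate 1 was near the floor in all 3, and bone marrow replicate 2 lay between it and the colonic lines. The log2 difference of 2.80 ± 1.09 (SE; adjusted p = 0.846) became 1.25 with bone marrow replicate 1 left out and 4.35 with replicate 2 left out, so its size depends on which bone marrow line is used. A dimmer probe set above the filter overlapped between tissues (0.65).

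Foxp1, which pairs with Foxp2 and Foxp4, had 1441 and 1713 in the colonic lines, against 2047 and 2568 in the bone marrow lines. Of its 7 probe sets above the filter 5 were lower and 2 higher in colonic MSC, with log2 differences from -0.60 to 0.05, and 3 of the 7 did not overlap. Foxp4 had 408 and 296 in the colonic lines, against 157 and 229 in the bone marrow lines (log2 difference 0.83 ± 0.39, SE; adjusted p = 0.929). Foxp3, the factor of regulatory T cells, had 46.9 and 33.4 in the colonic lines, against 38.8 and 26.2 in the bone marrow lines. Summed over 8 lymphoid markers the intensity was 158 and 178 in the colonic lines, against 180 and 199 in the bone marrow lines, with the T cell receptor gene Cd3e between 8.13 and 12.2.

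**Figure D3:**
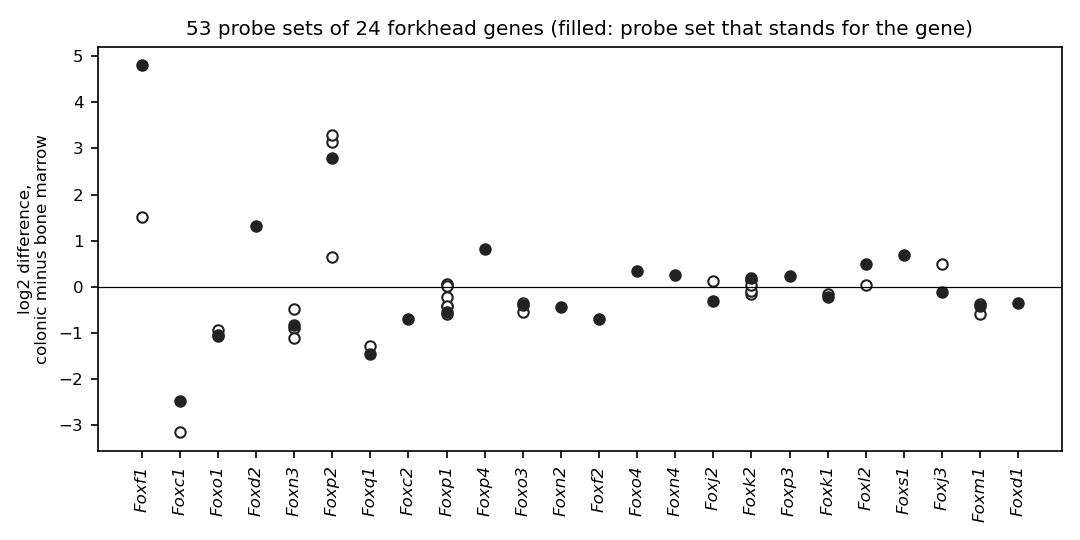
Log2 difference, colonic minus bone marrow MSC, of each of the 53 forkhead probe sets above the filter, in columns by gene in order of p, with the probe set that stands for the gene filled. All probe sets of a gene lie on 1 side of 0 in 10 of the 14 genes with several, and Foxj2, Foxj3, Foxk2 and Foxp1 have probe sets on both sides.

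The broadly expressed genes of the FoxK, FoxN and FoxJ classes mostly showed small differences between tissues. Foxn3, a repressor linked to DNA damage checkpoints, had 1597 and 2059 in the colonic lines, against 4105 and 2531 in the bone marrow lines, and all 4 of its probe sets were lower in colonic MSC without overlap, by log2 differences between -1.11 and -0.49 (adjusted p = 0.846 for the probe set that stands for the gene, -0.83 ± 0.32, SE). Without bone marrow replicate 1, its highest line, the difference of Foxn3 was -0.48. Foxn2 had 1113 and 1051 in the colonic lines, against 1280 and 1706 in the bone marrow lines (-0.45 ± 0.28, SE; adjusted p = 0.976). Foxk1 and Foxk2, repressors that also control glycolysis and autophagy, had log2 differences of -0.22 ± 0.28 and 0.18 ± 0.19 (SE), and Foxj2 and Foxj3 of -0.30 ± 0.31 and -0.11 ± 0.25 (SE). Their 95% intervals, between -1.13 and 0.70 together, hold differences of either sign. Foxn4 was dim, between 38.5 and 57.9.

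Foxm1 overlapped between tissues. It had 144.5 and 1130 in the colonic lines, against 616 and 503 in the bone marrow lines, so the colonic lines were the lowest and the highest of the 4. Of its 2 other probe sets above the filter, the brighter had 148 and 1045 in the colonic lines, against 592 and 465 in the bone marrow lines, and the dimmer had 55.2 and 513 in the colonic lines, against 317 and 239 in the bone marrow lines, so all 3 gave the same order of lines. Those genes that FoxM1 is known to switch on in mitosis had 14 measured members, with 0 past the test in either direction and a median log2 difference of -0.67. All but Cks1b, 13 of the 14, were lowest in colonic replicate 1, and 10 were highest in colonic replicate 2. The share of all genes with either order is not given here, so nothing is read from these counts.

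Around each gene's mean over the 4 arrays, the median of the 14 stood at -1.21 and 0.61 on the log2 scale in the colonic lines, against 0.24 and 0.34 in the bone marrow lines. In order of p the first 4 were Cdc20, Birc5, Cenpa and Cenpe. Cdc20, the activator of the anaphase-promoting complex, had 2638 and 6435 in the colonic lines, against 6902 and 6674 in the bone marrow lines. Birc5, the survivin gene, had 2448 and 4606 in the colonic lines, against 4718 and 4495 in the bone marrow lines. Cenpa, the histone of centromeres, had 911 and 4020 in the colonic lines, against 3179 and 3680.5 in the bone marrow lines, and the spindle motor gene Cenpe had 858 and 2624 in the colonic lines, against 2029 and 2802 in the bone marrow lines.

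**Figure D4:**
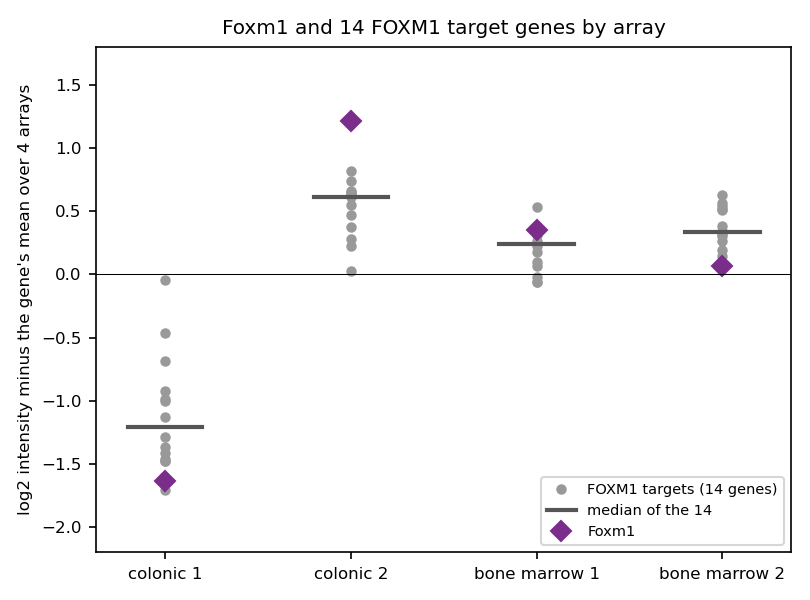
Log2 intensity around each gene's mean over the 4 arrays for Foxm1 (diamonds) and 14 FOXM1 target genes (grey points, with bars at their median). On the array of colonic replicate 1 Foxm1 and the target median (-1.21) are lowest, and on that of colonic replicate 2 both are highest.

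Foxq1, a factor of hair and stomach epithelium, was the only gene of the ectoderm, nerve and germ line group above the filter. It had 62.5 and 20.4 in the colonic lines, against 81.7 and 193 in the bone marrow lines (log2 difference -1.46 ± 0.59, SE; adjusted p = 0.853), and its other probe set, which may match further transcripts, overlapped between tissues. With its lowest colonic or its highest bone marrow line left out, the difference of Foxq1 was -0.88 or -0.91.

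The 13 genes below the filter had intensities between 1.00 and 65.6, with a median of 16.7. Genes of unrelated tissues such as liver, sperm and lens, used as a floor, lay between 1.00 and 144, with a median of 14.0. In 10 of the 13 every array was under the filter intensity. The 13 were Foxa1, Foxa2 and Foxa3, the pioneer factors of endoderm, Foxi1 and Foxj1 of ion-transporting and ciliated cells, Foxb1, Foxb2, Foxd3, Foxd4, Foxe3 and Foxh1, the thymus factor Foxn1 and Foxl1. Foxa1 was listed at 1 on both colonic arrays, a value shared by 981 to 1016 probe sets of each array, and at 44.5 and 65.6 in the bone marrow lines. The log2 difference of Foxa1 without a filter was -2.21 ± 0.23 (SE; limma adjusted p = 0.120), a size that depends on the pseudocount because of the values at 1.

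The summed intensity of 12 intestinal epithelial markers was 3178 and 395 in the colonic lines, against 6656 and 5530 in the bone marrow lines. Krt19 made up 1890 and 105 of it in the colonic lines, against 6223 and 5083 in the bone marrow lines, and Krt20 made up 889 on the array of colonic replicate 1. The stem cell marker Lgr5 was at 12.9 and 9.30 in the colonic lines, against 124 and 73.1 in the bone marrow lines. Krt19, Lgr5 and the dim Krt8 were thus lower in both colonic lines. Epcam and Cdx2, both near the floor, were higher in both, and the other members of the list, Krt20 among them, overlapped between tissues. Vil1, Cdx1 and Cdx2 stayed between 3.38 and 28.8 and Hnf4a between 86.2 and 100.02. The 6 ciliated cell markers summed to 362 and 208 in the colonic lines, against 289 and 199 in the bone marrow lines. The 7 enteric glia and neuron markers summed to 1328 and 465 in the colonic lines, against 1222 and 564 in the bone marrow lines. Of these sums the epithelial, ciliated and nerve ones were each lower in colonic replicate 2 than in colonic replicate 1. The 10 macrophage markers summed to 1697 and 1604 in the colonic lines, against 2882 and 1141 in the bone marrow lines. Lyz2 made up 150 and 590 of it in the colonic lines, against 1589 and 31.7 in the bone marrow lines. The part of such cells in the Foxa1 and Foxq1 values was not tested.

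Foxf1 and Foxc1 each lie in a small cluster of forkhead genes. In the RefSeq order of GRCm38.p6, Fendrr, Foxf1, Mthfsd, Foxc2 and Foxl1 follow each other on chromosome 8, and Foxq1, 1700018A04Rik, Foxf2, Foxc1 and Gmds on chromosome 13, where other annotated genes lie between some of the second set. Neighbours of Foxf1 and Foxc1 outside the family were measured by probe sets that the rule did not use. Fendrr, a long noncoding RNA of lateral mesoderm next to Foxf1, had 106 and 267 in the colonic lines, against 16.2 and 15.3 in the bone marrow lines. The tissues did not overlap (log2 difference 2.64 ± 0.47, SE; adjusted p = 0.313). Mthfsd, on the other side of Foxf1, had 1006 and 626 in the colonic lines, against 785 and 722 in the bone marrow lines, and overlapped.

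Gmds, the GDP-mannose dehydratase gene on the far side of Foxc1, had 1160 and 1571 in the colonic lines, against 2820 and 2551 in the bone marrow lines. Its other probe set had 445 and 627 in the colonic lines, against 1309 and 1263 in the bone marrow lines. Gmds was thus lower in both colonic lines, as Foxc1 was (log2 difference -0.98 ± 0.26, SE; adjusted p = 0.618). The noncoding gene 1700018A04Rik, between Foxq1 and Foxf2, was dim and overlapped (28.95 to 44.3). In the first cluster, then, Foxf1 was higher and Foxc2 lower in colonic MSC, with Mthfsd between them, and in the other Foxc1 was lower without overlap while Foxf2 overlapped.

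**Figure D5:**
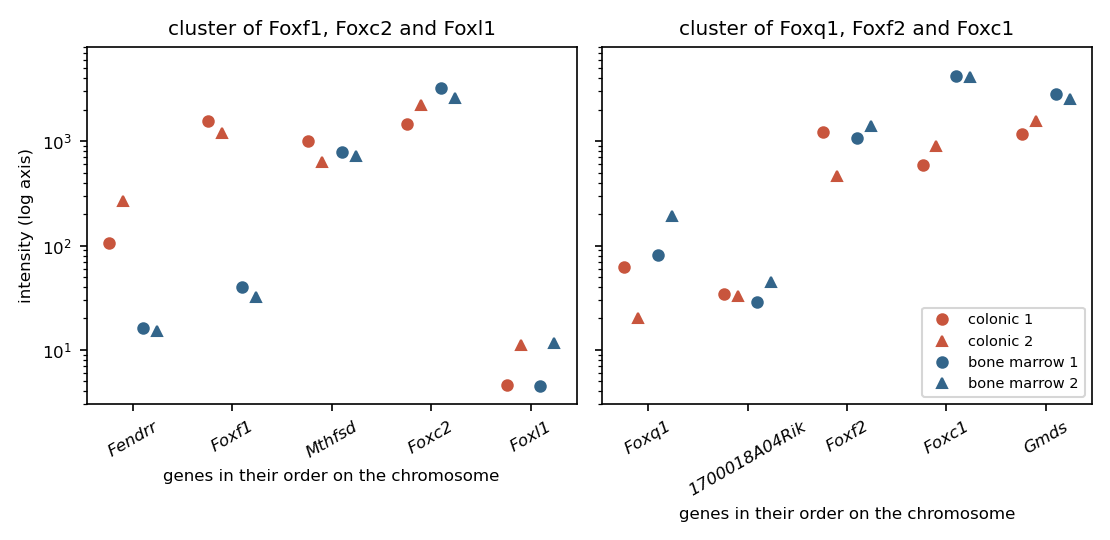
Intensity on a log axis of genes of the 2 forkhead clusters in their order on the chromosome, colonic lines in red and bone marrow lines in blue, to be compared within a gene only. Fendrr and Foxf1 are higher and Foxc1 and Gmds lower in both colonic lines, while Mthfsd and Foxf2 overlap.

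Genes upstream of FoxF in the Hedgehog pathway had 12 measured members, 9 above the filter, with 0 past the test in either direction and a median log2 difference of -0.14. In order of p, the receptor gene Ptch1 came first, with a log2 difference of -1.05 ± 0.24 (SE). The co-receptor gene Boc had 918 and 504 in the colonic lines, against 220 and 234 in the bone marrow lines. The co-receptor genes Cdon and Gas1 were lower, at 368 and 631 in the colonic lines, against 1053 and 1236 in the bone marrow lines for Cdon, and at 325 and 2346 in the colonic lines, against 5319 and 5121 in the bone marrow lines for Gas1. Tissues did not overlap in these 4 genes, 1 higher and 3 lower, which are those of lowest p, while Gli2, Gli3, Smo, Sufu and Ihh overlapped. Over all genes 18.4% were higher and 15.1% lower without overlap. Gli1, the usual readout of the pathway, stayed below the filter, between 16.8 and 35.2.

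Marrow niche genes linked to Foxc1 had 12 members above the filter, 0 of them past the test in either direction. Several were put on the list because an earlier look at these data had shown them to be lower, so the order of the list, 11 lower and 1 higher with a median log2 difference of -1.45, was partly fixed by that choice and nothing is read from it (48.5% of all genes were lower). The first 4 by p were Cebpa, Angpt1, Sp7 and Ebf3, and the tissues did not overlap in any of them, which are those of lowest p. Over all genes 18.4% were higher and 15.1% lower without overlap. Angpt1, which encodes a ligand of the receptor Tie2, had 13.3 and 1.00 in the colonic lines, against 1525 and 498 in the bone marrow lines. Cebpa, a factor of fat cell formation, had 18.3 and 35.1 in the colonic lines, against 872 and 631 in the bone marrow lines. The colonic values of both are near the floor, so the size of their differences depends on the pseudocount. Sp7, the osteoblast factor osterix, had 51.2 and 53.1 in the colonic lines, against 1629 and 137 in the bone marrow lines, which differ widely from each other. Ebf3, a factor of marrow stromal cells like Foxc1, had 330 and 14.9 in the colonic lines, against 743 and 715 in the bone marrow lines.

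The 2 factors named above for the cells that need FoxC1 did not share one pattern. Cxcl12 had 1417 and 12778 in the colonic lines, against 11416 and 11205 in the bone marrow lines, so the tissues overlapped and colonic replicate 2 was the highest of the 4. Kitl, which encodes Scf, had 2047 and 1672 in the colonic lines, against 2112 and 3466 in the bone marrow lines, without overlap (limma log2 difference -0.55 ± 0.32, SE).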

How the data were processed

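Total RNA of 4 MSC lines was amplified, given a biotin label and measured on Affymetrix mouse arrays, 1 for each line, per the labels' protocols. The deposited values are intensities on a linear scale, judged from the values, and how the authors summarised, background-corrected or scaled them is not given in the sources used here. Detection calls were not used, and low intensities are described as near the floor. The number of arrays limits the precision.

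Members and gene lists were chosen with earlier results of these data known. Values were taken as log2(intensity + 13.7), 0.25 of the median of all values, which understates differences of dim genes. The deposited scaling was kept. Probe sets with 1 symbol and a mean log2 value above the 40th percentile were used, and each gene was represented by its brightest one. Colonic minus bone marrow MSC was fitted with limma 3.58.1 in R 4.3.3 (lmFit, eBayes with an intensity trend), two-sided, with Benjamini-Hochberg adjustment over 12920 genes and 2 residual degrees of freedom. The spread taken from other genes had 2.53 prior degrees of freedom. An exact permutation test of 2 against 2 arrays cannot go below p = 0.333, so none is given. Full statistics are given for the 12 forkhead genes of lowest p, other members by role, and up to 4 genes of each list by p. Foxf2, Foxk1, Foxk2, Foxj2 and Foxj3, beyond those 12, and Foxd1, Foxs1, Foxm1, Fendrr, Gmds, Cxcl12, Kitl and the single cell type markers were described after their values were seen. Settings tried were scaling, pseudocount, filter, probe set choice, variance model, threshold, replicate number as a block and leaving out each array. The fit was tested on simulated data. Promoters are RefSeq windows of GRCm38.p6. Both strands were searched.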

Additional observations from a re-analysis of the deposited data

How the results depend on the processing

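The 12 forkhead genes with full statistics kept their direction in all 190 values from 16 other settings, with 0 reversed. The tissues did not overlap in any of these 12, so a change of pseudocount or leaving out 1 array could not reverse a direction. Changes of filter, variance model or threshold and the replicate block left the difference itself unchanged. The kept direction is therefore largely fixed in advance. The count of all genes past an adjusted p of 0.05 by limma, 0 as reported, was 17 after median centring and 13 after quantile normalization, 15 each under robust eBayes and the 60th percentile filter, 13 each under a pseudocount of 1 and no trend, 12 when probe sets were averaged and 49 at an adjusted p of 0.1, and it ranged from 0 to 33 when 1 array was left out, with 33 without colonic replicate 1. The count of forkhead genes past the threshold was 1, Foxf1, with the filter at the 60th percentile, without the trend and at an adjusted p of 0.1, and 0 when any array was left out. The median log2 difference of the forkhead genes, -0.26, was -0.11 with no filter, -0.14 when probe sets were averaged, -0.23 over single probe sets and -0.38 under the 60th percentile filter, and it ranged from -0.32 to -0.10 when 1 array was left out, with -0.10 without colonic replicate 2. No filter and single probe sets add dim features by construction, and the cause of the other shifts was not tested. With the replicate number as a block, 0 genes and 0 forkhead genes passed, 5 forkhead genes had an unadjusted p under 0.05 and the median was -0.26. Same-numbered arrays deviated from their tissue means with a correlation of 0.106 over genes, and the labels state no shared litter or batch, so the arrays were not treated as pairs. The adjusted p of Foxf1 ranged from 0.0458 to 0.352 over these settings and that of Foxc1 from 0.0688 to 0.601. Without 1 array, Foxc2 was as small as -0.40 and Foxo3 ranged from -0.63 to -0.18 and Foxn2 from -0.65 to -0.24. Intensities near the floor are uncertain, so no order was read from the 10 members under the filter intensity on every array.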

Other observations

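Foxl2os, the noncoding RNA transcribed next to Foxl2 and outside the naming rule, had 284 and 15.7 in the colonic lines, against 14.6 and 9.04 in the bone marrow lines. The brighter probe set of Foxl2 was also highest in colonic replicate 1, at 192, and between 48.0 and 73.6 on the other arrays, but the dimmer one above the filter was lowest there, with 36.3 and 52.8 in the colonic lines, against 37.9 and 47.0 in the bone marrow lines. Whether the probe sets of these neighbours can be told apart by strand is not given in the sources used here.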
